A study of Ovis aries with 2 samples.

Results

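Transcription factor genes of 20 families known for roles in development and the trophoblast were taken from the gene assignments of a PPARG ChIP-seq experiment on sheep conceptuses. They were picked by name alone. A gene counted if its symbol began with KLF, SOX, GATA, TEAD, ELF, ETV, TBX, LHX, CDX, DLX, MSX, STAT, IRF, SMAD or NR and a digit, or with FOX (without FOXRED), HOX, TFAP2, CEBP or POU. By this rule 15 of the 1833 gene names in the table qualified, in 15 of the 2288 PPARG intervals. Each had 1 interval, and no interval held more than 1 of them.

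The PPARG library was made with a rabbit polyclonal antibody, and the input library, which got no antibody, came from unprecipitated chromatin. Both groups consisted of 1 library from day 14 of pregnancy, each from a pool of 4 whole conceptuses of columbia/ramboulette crossbred ewes. The pool mixes trophectoderm with the other tissues of the conceptus, so an interval cannot be placed in a cell type, and the expression of marker genes was not measured. With 1 library of each kind there is no replicate error, and no test was made. Read totals are unknown. Heights are the highest signal in an interval in the authors' units, the 95% Wilson intervals given for shares cover counting error only, and positions refer to Oar_v3.1. The input library had 5 intervals, and none of the 15 lay on 1 of them.

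PPARG is a nuclear receptor that binds DNA together with a retinoid X receptor and is required for placental development in mice. In ruminants the trophectoderm elongates before implantation and secretes interferon tau, the signal by which the mother recognises pregnancy. In mice, CDX2, TEAD4, GATA3, TFAP2C and ELF5 establish and maintain the trophoblast, whereas POU5F1 and SOX2 mark the pluripotent epiblast and SOX17 and GATA6 the primitive endoderm. C/EBP factors act beside PPARG in fat cells, where CEBPB is among the factors that switch on the PPARG gene.

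A small share of the genes of these families had a PPARG interval, as was the case for all named genes. Of 251 named members that RefSeq lists for the sheep assembly ARS-UI_Ramb_v3.0, 15 had one, which is 5.98% (95% interval 3.65 to 9.62). The share of all 16387 named genes was 9.28%. The family share lay below it, and its interval reached past it. The 15 genes belonged to 10 families with 139 named members. The C/EBP family had an interval at 2 of 7 genes, TEAD at 1 of 4, ELF at 1 of 5 and POU at 3 of 17. GATA had 1 of 6, STAT 1 of 7, SMAD 1 of 8 and KLF 2 of 17. The larger FOX family had 2 of 43 and the nuclear receptors named NR had 1 of 25. The other 10 families had none. The HOX genes, which pattern the body axis, were the largest of these, with 0 of 38, followed by SOX with 0 of 19, TBX with 0 of 13 and IRF with 0 of 12. LHX had 0 of 8, DLX and ETV 0 of 6 each, TFAP2 0 of 5, CDX 0 of 3 and MSX 0 of 2. These totals count names, and 9 of the 251 belong to cofactor genes, POU2AF1 among them. Without the cofactors, 14 of 242 had an interval (5.79%). The families were not tested against one another.

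**Figure D1:**
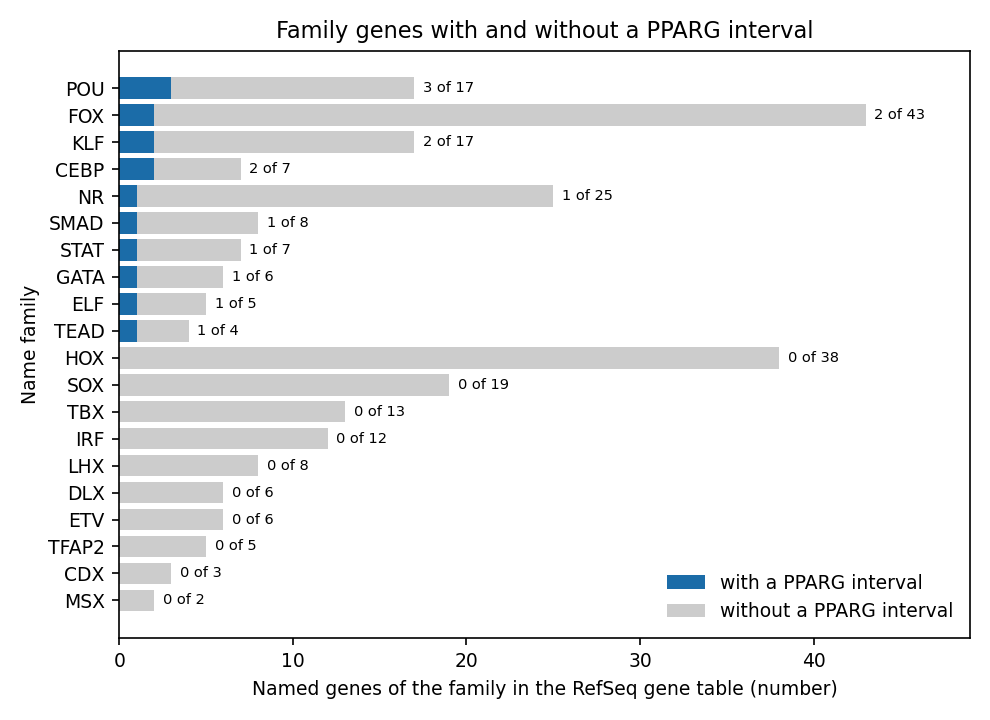
Number of named genes in each of the 20 families (bar length), split into those with a PPARG interval (blue) and those without (grey). Genes with an interval were found in 10 families, with at most 3 in any of them (POU), and the 38 HOX and 19 SOX genes had none.

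Textbook regulators of the early lineages had an interval in a share near that of all genes. Of 28 textbook regulators of trophoblast, epiblast, endoderm or interferon signalling that belong to these families, GATA3 and CEBPB had one and 26 did not. This is 7.14% (1.98 to 22.6), near the 9.28% of all named genes. The 26 included the trophoblast factors CDX2, TEAD4, TFAP2A, TFAP2C, ELF3, ELF5, GATA2, KLF5, KLF6, DLX3 and MSX2. The epiblast factors POU5F1 and SOX2 and the endoderm factors SOX17, GATA4, GATA6 and FOXA2 were also without one. So were STAT3, IRF1 and IRF2, the receptors NR2F2 and NR5A2, and CEBPA and FOXO1. A gene counts as without an interval when the authors' assignment, which follows their own annotation and distance limits, does not name it. Intervals with no assigned gene could lie farther from any of them.

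Both C/EBP genes had high intervals. CEBPG encodes a C/EBP factor that lacks a transactivation domain and acts through its dimer partners. Its interval was the highest of the 15, with a height of 78 and a mean signal of 17.9 (chromosome 14, 43107403 to 43109734), and 98.2% of all PPARG intervals were lower. The summit lay 12048 bp from the gene start, downstream of the gene, with no CpG island and no promoter mark. The same interval lay inside PEPD, a dipeptidase gene, 118898 bp from its start. CEBPB encodes the C/EBP factor that acts early in fat cell differentiation. Its interval had a height of 51 and a mean signal of 18.6, the highest mean of the 15 (chromosome 13, 77752718 to 77753896). It lay 2361 bp upstream of the gene start, was marked with a promoter but no CpG island, and had no other gene assigned. The nearest other PPARG intervals were 132 kb away at CEBPG and 136 kb away at CEBPB. CEBPA had no interval.

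NR2F6, an orphan nuclear receptor of the COUP-TF group that mostly represses transcription, had the third highest interval, with a height of 47 and a mean signal of 14.0 (chromosome 5, 5592354 to 5594785). It held 2 CpG islands and a promoter. The summit lay 1022 bp upstream of the NR2F6 start, the shortest distance of the 15, and 11553 bp from the start of USHBP1, which it was downstream of. FOXA1, a pioneer factor of endoderm and hormone-responsive epithelia, had a height of 31 and a mean signal of 13.6 at 1639 bp upstream (chromosome 18, 46662001 to 46662684), with a CpG island and a promoter. This interval stood alone, since the next one on the chromosome was 1380 kb away. The other FOX gene, FOXN2, a forkhead factor, had 25 at 31682 bp from its start, downstream of the gene (chromosome 3, 75993853 to 75995150).

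These 4 genes, CEBPG, CEBPB, NR2F6 and FOXA1, were those at or above the upper quartile of all PPARG intervals, a height of 31. They made up 26.7% of the 15 (10.9 to 52.0), beside 25.5% of all intervals, so high intervals were about as frequent at these families as elsewhere. The median height over the 15 was 25 (95% interval 19 to 31 from order statistics), and over all 1518 intervals with a gene it was 22. The lowest were at KLF10 and TEAD1, with 11 each, and only 0.350% of all intervals were lower. From the lowest to the highest of the 15 there was a 7.09-fold range.

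**Figure D2:**
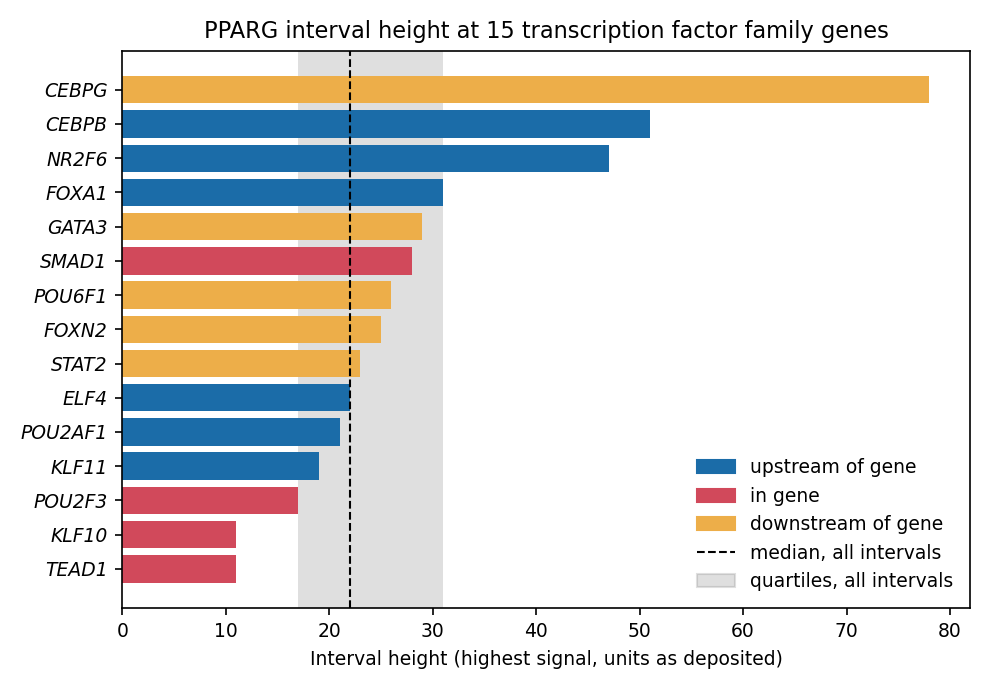
Height of the PPARG interval (highest signal, in the authors' units) at each of the 15 genes, coloured by its position relative to the gene, with the median of all intervals (dashed line, 22) and their quartiles (grey band, 17 to 31). CEBPG, CEBPB and NR2F6 stand above the band and KLF10 and TEAD1 below it.

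GATA3, an early trophectoderm factor in mice, had an interval with a height of 29 and a mean signal of 13.1, higher than 70.6% of all intervals (chromosome 13, 12101683 to 12102647). It lay 27277 bp from the gene start, downstream of the gene, without a CpG island or promoter mark. No other gene was assigned to it, and the next interval was 189 kb away. TEAD1 encodes a DNA-binding partner of the Hippo pathway coactivators YAP1 and WWTR1, as is TEAD4 in mouse trophectoderm. Its interval of 11 lay inside the gene, 37160 bp from the start (chromosome 15, 39506554 to 39507401). ELF4, an ETS factor studied mainly in blood cells and innate immunity, had 22 at 2519 bp upstream with a promoter mark (chromosome X, 108280008 to 108281048). The trophoblast factors of the same families, TEAD4 and ELF5, had no interval while a relative did.

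Among signal-dependent factors, SMAD1, which carries signals from BMP receptors to the nucleus, had an interval with a height of 28 and a mean signal of 12.4, 2419 bp into the gene (chromosome 17, 12506453 to 12507353). It carried a promoter mark and no CpG island. KLF10 and KLF11 are closely related repressors induced by TGF-beta. The interval of KLF11 had 19 at 1303 bp upstream (chromosome 3, 19121453 to 19122203), with a promoter mark. That of KLF10 had 11 inside the gene, 32102 bp from its start (chromosome 9, 74283675 to 74284492), with neither mark. STAT2, a component of the type I interferon response complex, had an interval of 23 that lay downstream of it, 19983 bp from its start (chromosome 3, 162942632 to 162943643). The summit of that interval was 11 bp into PAN2, a gene of messenger RNA deadenylation, and 3881 bp upstream of IL23A, and a CpG island was marked there. A further interval of 26 lay 16.0 kb away, 129 bp into CNPY2.

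The POU genes with an interval were POU6F1, POU2F3 and POU2AF1. POU6F1, a POU homeodomain factor, had 26 at 23674 bp from its start, downstream of the gene (chromosome 3, 134872317 to 134873262). TFCP2, a grainyhead-related factor gene, was nearer to the same interval, which lay 4372 bp upstream of it. With 3 other intervals within 100 kb, at CSRNP2 and LETMD1, POU6F1 had the most neighbours of the 15. POU2F3, a factor of epidermis and chemosensory tuft cells, had 17 inside the gene, 61869 bp from the start (chromosome 15, 30408464 to 30409653). POU2AF1, a coactivator of POU factors in B cells and not itself a POU factor, had 21 at 4218 bp upstream with a promoter mark (chromosome 15, 21100673 to 21101482).

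None of the 15 summits came as close as 1 kb to the start of its gene. Over all 2160 pairs of an interval and a gene, 21.6% did. With 15 genes a count of 0 allows a share of up to 20%, close to that of all pairs. The upstream intervals of CEBPB, NR2F6, FOXA1, ELF4, POU2AF1 and KLF11 instead lay between 1022 and 4218 bp from the start. That band, 1 to 5 kb upstream, held 6 of the 15 (40.0%, 19.8 to 64.3) and 238 of all 2160 pairs (95% interval 9.77 to 12.4%). It was chosen after the distances were seen and is given as a description. No family gene was assigned an interval farther upstream. Within 5 kb of the start on either side there were 7 of 15 (46.7%), beside 39.9% of all pairs. Within 10 kb there were also 7 of 15, beside 60.1% of all pairs.

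**Figure D3:**
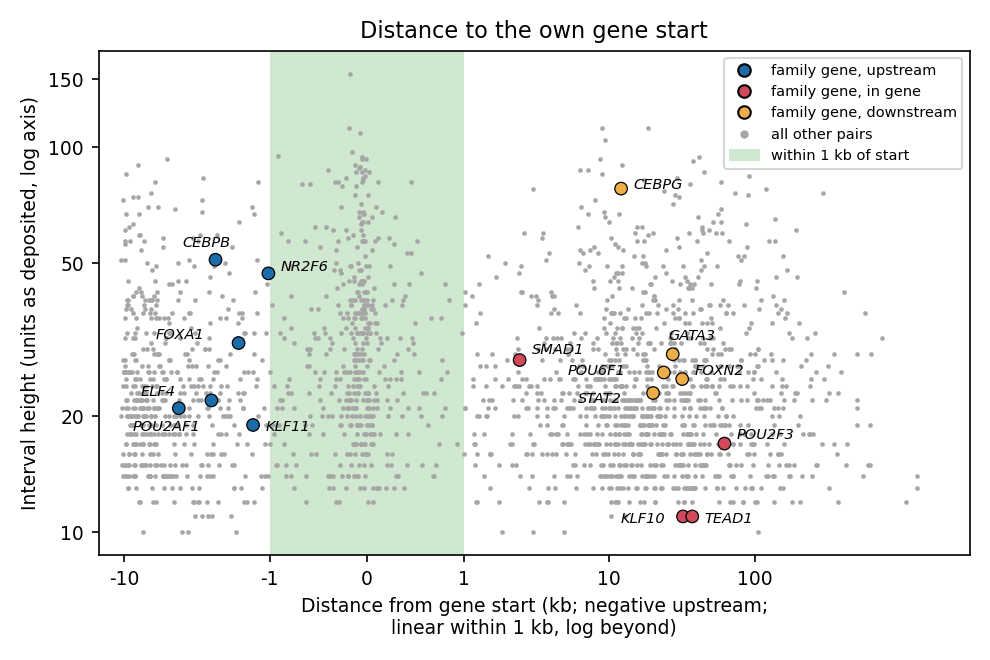
Distance of the interval summit from the start of the assigned gene (kb, negative upstream, linear within 1 kb and logarithmic beyond) against interval height (log axis), for the 15 genes (coloured by position) and all other pairs of an interval and a gene (grey). No coloured point falls in the green band within 1 kb of the start, where many grey points crowd, and the 6 upstream genes sit just outside it.

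Of the 15 intervals, 6 were upstream of their gene, 4 inside and 5 downstream. Inside the gene they made up 26.7% (10.9 to 52.0), beside 39.5% of all pairs, and downstream 33.3% (15.2 to 58.3), beside 21.5%. The intervals inside genes had heights of 28 at SMAD1, 17 at POU2F3 and 11 at KLF10 and TEAD1, with a median of 14, where all intervals inside genes had a median of 22. Upstream the heights ran from 19 to 51, with a median of 26.5, where all upstream intervals had a median of 24. Downstream they ran from 23 to 78, with a median of 26, where all downstream intervals had a median of 23. The 5 downstream intervals belonged to CEBPG, GATA3, FOXN2, POU6F1 and STAT2. For POU6F1 and STAT2 another gene's start was nearer to the summit. Genes outside the families shared 4 of the 15 intervals, those of CEBPG, NR2F6, POU6F1 and STAT2.

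Promoter marks were found in 9 of the 15 intervals (60.0%, 35.7 to 80.2), beside 49.3% of all intervals with a gene. CpG islands were found in 3 (20%, 7.05 to 45.2), beside 32.8%. All 6 upstream intervals carried a promoter mark, with a CpG island at NR2F6 and FOXA1. The share of all upstream intervals with a promoter mark was not computed. SMAD1 carried a promoter mark inside the gene, and the marks at STAT2 and POU6F1 came with intervals that lay upstream of or at another gene's start. The promoter mark is the authors' count of promoters per interval, not a measure of chromatin, and its definition is unknown here. If it rests on distance to a gene start, it restates the positions above. Promoter without CpG island was the class of 6 of the 15 (40.0%, 19.8 to 64.3) and of 326 of the 1518 intervals with a gene (21.5%). Neither mark was found at CEBPG, GATA3, FOXN2, POU2F3, KLF10 and TEAD1.

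The intervals of NR2F6 and CEBPG were long, with 2431 and 2331 bp. Of all PPARG intervals, 99.7% were shorter than the first and 99.6% shorter than the second, and 31 of 2288 were over 2 kb. Their heights were 3.35 and 4.35 times their mean signals, where the median of all intervals was 2.14. The other 13 ran from 683 bp at FOXA1 to 1297 bp at FOXN2. The median length of the 15 was 964 bp, beside 888 bp for all intervals with a gene.

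**Figure D4:**
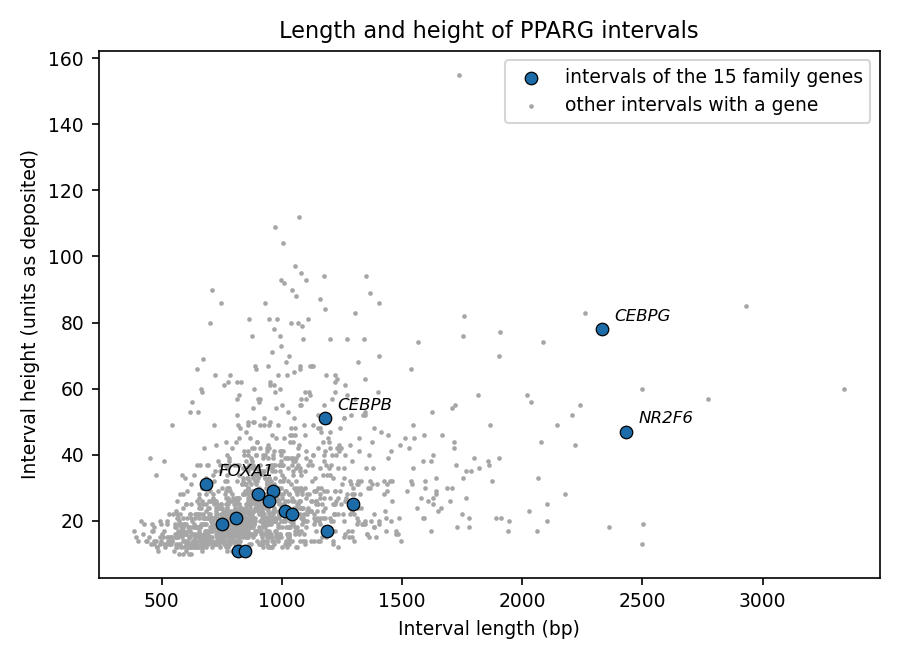
Length (bp) against height (units as deposited) for the intervals of the 15 family genes (blue) and all other intervals with an assigned gene (grey). CEBPG and NR2F6 lie apart from the other 13 family genes, at over 2 kb, and FOXA1 is the shortest.

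Regulators of the same lineages whose names the rule did not take had an interval in 11 of 94 cases (11.7%, 6.66 to 19.8), beside the same 9.28% of all named genes. The highest were ARID5B, a chromatin regulator studied in fat cells, with 63, and WWTR1 with 52. Next came ESRRA, an orphan receptor of mitochondrial genes, with 43, and ARNT, the dimer partner of hypoxia-inducible factors, with 38. A gene that the authors named TCF3 had 35. The interval of TCF3 lay 202062 bp from its start, downstream of the gene, and was also assigned to LOC101123546 and RETSAT. The nearest start was that of LOC101123546, with the summit 496 bp into that gene, and the interval held a CpG island and a promoter mark. Which gene their annotation meant by TCF3 was not checked. Of the retinoid X receptors, which pair with PPARG, RXRG had 21, with a second interval of 11, and RXRB had 20. RXRA was not among the 11 regulators with an interval. The heights at RXRG and RXRB lay below the median of all intervals, 22. The RXRB interval was also assigned to COL11A2, SLC39A7, HSD17B8 and RING1. The Hippo coactivators had an interval each, as did TEAD1, 1 of the 4 TEAD genes. That of WWTR1 lay 76282 bp into the gene, with a second one of 15. That of YAP1, with a height of 14, lay 135724 bp from its start and downstream of the gene. The heights at YAP1 and TEAD1 (11) were below the lower quartile of all intervals, 17. YAP1 and the retinoid X receptors were picked out after their values were seen.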

How the data were processed

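ChIP-seq intervals of 1 PPARG and 1 input library were read from the authors' table. Per the submitters' processing notes, BWA and build Oar_v3.1 were used. Not given in the sources used here are the BWA version, peak caller, threshold and annotation. The authors deposited the highest and the mean signal per interval, of unknown scaling, whole-number counts of CpG islands, promoters and genes, and the distance to each gene start.

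Gene lists were split at commas with Python 3.11.15 and pandas 2.3.3, and family names were matched by pattern. Names were matched to 16387 named protein-coding RefSeq genes of chromosomes, by symbol or synonym, and no coordinates of that assembly were used. All 15 family genes matched. Intervals for shares used scipy 1.17.1. Parsing was tested on simulated data.

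The rule was to name every family gene with an interval, with most detail for heights at or above the upper quartile, summits within 1 kb of the own start or at least 2 intervals. Positions of the others were added. For the other regulators it named the 5 highest. Some genes of the textbook list are not reported here by name. The genes and lists were chosen with earlier results of these data known.

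Alternatives varied the height, input overlap, shared intervals, nearest start, cofactor genes, synonyms and distance. Promoter sequences and motifs were planned, but not analysed here.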

Additional observations from a re-analysis of the deposited data

How the results depend on the processing

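No paired analysis was possible because each group is 1 library. The share of family genes with an interval was 0% when only intervals within 1 kb of the own start counted (2.31% of all genes) and 2.79% for intervals inside the gene or up to 2 kb upstream of it (5.76% of all genes). It stayed below that of all genes in every setting run, but by little in some. All settings draw on the same 15 genes and their intervals, so they do not count as separate evidence. With single-gene intervals it was 4.38%, beside 4.78% of all genes. With the nearest start it was 5.18%, beside 6.79%. By widening the window, the share within 1 kb of the own start became 46.7% within 5 kb, beside 39.9% of all pairs. Within 10 kb it was also 46.7%, beside 60.1% of all pairs. The share inside the gene was 10.0% at or above the median height, where 10 family genes were left, beside 36.5% of all pairs at those heights. Of the other regulators, 2.13% had an interval within 1 kb, beside 2.31% of all genes. Every other setting left these shares and the median height within the 95% interval of the value reported. Of the 15 genes, 11 were left with single-gene intervals, 13 with the nearest start and 14 without cofactors. With 15 genes, differences in share of the size seen here lie mostly within counting error.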
